A study of Mus musculus with 7 samples.

Results

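The extracellular matrix proteases of the MMP and ADAMTS families and their TIMP inhibitors were examined in bulk RNA sequencing libraries of mouse skeletal muscle endothelial cells. The genes were taken by symbol, as Mmp or Adamts followed by a number and Timp1 to Timp4, which gave 43 of the 30899 genes in each table: 20 Mmp, 19 Adamts and 4 Timp genes. Of these, 33 had a mean normalised count of at least 10 over the 7 libraries and are described (12 Mmp, 17 Adamts and 4 Timp genes), among 16931 such genes in all. The values are the authors' counts per gene scaled between libraries. A gene is named as called when its adjusted p in limma, a linear model fitted to all 16931 genes, was under 0.05.

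The group mECDglut1 held 4 libraries with the genotype label knockout, and its name refers to GLUT1, the glucose transporter encoded by Slc2a1. The group mECwt held 3 libraries with the label wild type. Both are primary muscle endothelial cells that were isolated with beads and received no treatment. The labels used here do not state the Cre line or promoter, the deleted exons, the age, or whether each library is a separate animal, and the p-values therefore speak of the spread between libraries, which may be technical.

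Slc2a1, the gene of GLUT1, did not separate the groups. It stood at 952.6, 1435, 824.2 and 1087 normalised counts in mECDglut1 libraries 1 to 4, against 1032, 1083 and 1266 in mECwt libraries 1 to 3 (log2 fold change -0.09, SE 0.18, limma adjusted p = 0.738). Directions given below for mECDglut1 therefore rest on the labels alone. All 6 endothelial markers (Pecam1, Cdh5, Kdr, Tie1, Tek and Emcn) were present in every library, with sums of 101440 to 110850 in mECDglut1 and 68830 to 93538 in mECwt. Library totals were 14592369 to 15731074 in mECDglut1 and 11855652 to 13441728 in mECwt. The number of reads behind them is unknown, since whole reads could not be recovered from the values. Genes at 0 numbered 8900, 8638, 7301 and 9306 in mECDglut1 libraries 1 to 4, against 2794, 5872 and 6551 in mECwt libraries 1 to 3. With every library scaled to the same total, the median over all tested genes was -0.21, against 0.02 with the values as deposited, and the calls split into 228 higher and 1645 lower, against 1013 higher and 936 lower as deposited.

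Matrix metalloproteases (MMPs) are zinc endopeptidases that cut collagens, laminins and other matrix proteins, and are either secreted or anchored in the membrane. ADAMTS proteases are secreted, carry thrombospondin repeats, and cut proteoglycans such as versican, process procollagens or act on microfibrils. TIMPs bind the active site of these enzymes, and TIMP3 stands apart in that it stays bound to the matrix and also inhibits ADAMTS and ADAM proteases. In blood vessels these genes govern the turnover of the basement membrane and the release of growth factors held in it.

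Of the 5 called genes, 4 have a promoter in the RefSeq table used (build GRCm38.p6). The 250 bases before the annotated start of each are shown because these are the genes whose levels differ in what follows. Capitals mark the matches to 4 motifs searched on both strands, and no marked match overlaps another. The letters searched for the AP-1 family of factors were TGANTCA. For factors that bind the cyclic AMP response element they were TGACGTCA. The GC box of the SP and KLF families was searched as GGGCGG. The core of the TATA box was searched as TATAAA. Each is written 5′ to 3′ on the strand of its gene, at chr6:115252206-115252455, minus strand, for Timp4, chr16:85803114-85803363, minus strand, for Adamts1, chr6:92943535-92943784, minus strand, for Adamts9 and chr8:113848840-113849089, minus strand, for Adamts18.
Timp4: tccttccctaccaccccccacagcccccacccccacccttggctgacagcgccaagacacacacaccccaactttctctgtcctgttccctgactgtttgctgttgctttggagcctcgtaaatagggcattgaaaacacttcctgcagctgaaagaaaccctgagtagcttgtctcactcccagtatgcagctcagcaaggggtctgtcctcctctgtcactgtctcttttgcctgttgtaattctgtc
Adamts1: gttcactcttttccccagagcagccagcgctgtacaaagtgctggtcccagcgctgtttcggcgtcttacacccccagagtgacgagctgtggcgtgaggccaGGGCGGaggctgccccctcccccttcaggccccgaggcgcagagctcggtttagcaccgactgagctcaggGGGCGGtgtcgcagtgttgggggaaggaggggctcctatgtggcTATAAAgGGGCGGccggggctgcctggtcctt
Adamts9: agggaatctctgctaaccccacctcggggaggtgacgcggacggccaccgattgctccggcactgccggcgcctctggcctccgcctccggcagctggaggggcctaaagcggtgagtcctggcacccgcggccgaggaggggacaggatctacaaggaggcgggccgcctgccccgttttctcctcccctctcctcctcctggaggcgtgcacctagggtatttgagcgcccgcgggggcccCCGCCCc
Adamts18: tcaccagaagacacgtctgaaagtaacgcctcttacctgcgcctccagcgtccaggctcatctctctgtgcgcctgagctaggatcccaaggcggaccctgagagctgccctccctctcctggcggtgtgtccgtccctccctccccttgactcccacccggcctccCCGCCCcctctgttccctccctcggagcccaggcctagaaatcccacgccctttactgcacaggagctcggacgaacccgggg

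The window of Timp4 held 0 matches to the 4 motifs. That of Adamts1 held 3 matches to GGGCGG, starting 147, 76 and 25 bases before the start, and TATAAA 32 bases before it. The windows of Adamts9 and Adamts18 each held 1 match to GGGCGG on the other strand (CCGCCC), at 7 and 83 bases. Among 32851 promoter windows of the same length, GGGCGG was found in 32.7%, TATAAA in 12.4%, TGANTCA in 6.75% and TGACGTCA in 1.55%. Over the 23 windows listed for 21 of the 33 described genes, GGGCGG was found in 16, TATAAA in 1, TGANTCA in 1 and TGACGTCA in 0. These are matches of letters, not sites shown to be bound.

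Among the inhibitors, Timp4 was higher in mECDglut1 and the other 3 genes did not pass the test. Timp4 had 5236, 2413, 4992 and 5440 normalised counts in mECDglut1 libraries 1 to 4, against 999.5, 2110 and 1055 in mECwt libraries 1 to 3. All 4 mECDglut1 values lay above all 3 mECwt values, though mECDglut1 library 2 and mECwt library 2 lay near each other. The means were 4520 ± 1417 (SD, n = 4) in mECDglut1 and 1388 ± 626 (SD, n = 3) in mECwt, or 1.72 on the log2 scale (SE 0.28, 95% interval 1.11 to 2.33, limma adjusted p = 0.00827). Without mECwt library 1 the Timp4 call ended (adjusted p = 0.0810, log2 fold change 1.53). In bulk RNA, a change in the number of cells of a type and a change in RNA per cell cannot be told apart.

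Timp3, the matrix-bound inhibitor, had the highest level per exonic kilobase of the 33 genes. Its normalised counts were 20674, 22905, 22751 and 23460 in mECDglut1, against 19411, 21070 and 21422 in mECwt. The groups overlapped, and the log2 fold change was 0.12 (SE 0.12, 95% interval -0.14 to 0.38, limma adjusted p = 0.505), with the sign turning to -0.10 at equal totals and -0.19 under quantile normalization. Timp2, which also helps to activate pro-MMP2 on the cell surface, had 5097, 7373, 4943 and 5654 normalised counts in mECDglut1, against 4125, 4279 and 5982 in mECwt. These values also overlapped (log2 fold change 0.27, SE 0.17, 95% interval -0.09 to 0.62, adjusted p = 0.273). Timp1, an inducible secreted inhibitor, was near the limit of description, at 25.6, 13.8, 12.7 and 19.3 in mECDglut1 and 16.5, 4.2 and 14.2 in mECwt. Its interval was wide (log2 fold change 0.71, 95% interval -0.60 to 2.02, adjusted p = 0.440).

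**Figure D1:**
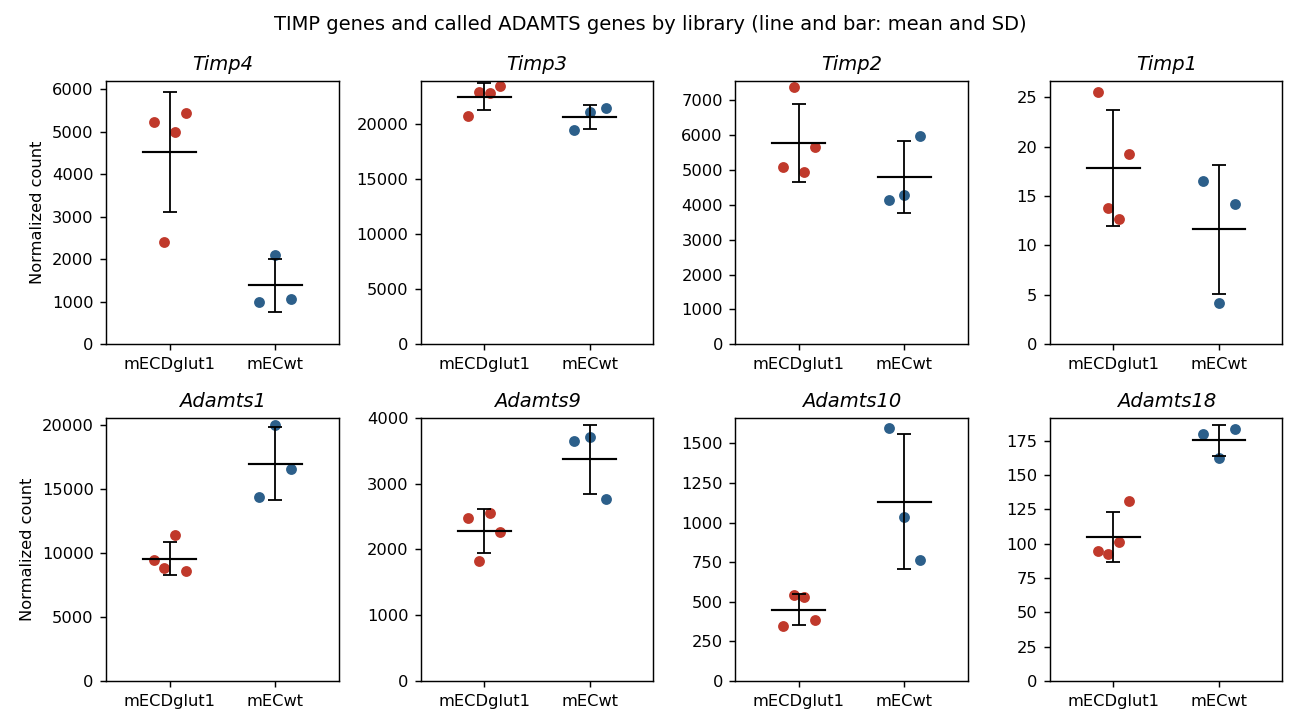
Normalised counts (y axis, from 0) of the 4 Timp genes and the 4 called Adamts genes in mECDglut1 libraries (red, left) and mECwt libraries (blue, right); each point is 1 library, the line is the group mean and the bar its SD. Timp4 sits at 2413 to 5440 in mECDglut1, above its 999.5 to 2110 in mECwt, and Adamts1 at 8570 to 11417 in mECDglut1, below its 14352 to 19962 in mECwt.

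Timp4 took a larger share of the TIMP transcripts in 3 of the 4 mECDglut1 libraries than in any mECwt library. Per exonic kilobase it made up 18.6%, 7.98%, 17.2% and 17.5% of the summed TIMP level in mECDglut1, against 4.67%, 8.84% and 4.10% in mECwt. The share in mECDglut1 library 2 lay below that in mECwt library 2, so the shares overlapped between groups. The share of Timp3 was 53.3% to 56.7% in mECDglut1 and 60.3% to 65.6% in mECwt, and that of Timp2 25.8% to 36.9% in mECDglut1 and 27.1% to 35.2% in mECwt.

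The Timp1, Timp3 and Timp4 genes lie inside the synapsin genes Syn1, Syn3 and Syn2, each on the opposite strand, and the sources used here do not say if counting used the strand. Syn2, whose exons overlap those of Timp4, averaged 104.7 ± 36.8 in mECDglut1 and 108.5 ± 42.6 in mECwt, far below Timp4 in every library (log2 fold change -0.05, adjusted p = 0.937). Syn3, whose exons overlap those of Timp3, was lower at 77.3 ± 43.9 in mECDglut1 and 423.8 ± 101 in mECwt (log2 fold change -2.67, SE 0.45, limma adjusted p = 0.00827). Syn1 was lower too, at 3.68 ± 0.90 in mECDglut1 and 26.2 ± 4.74 in mECwt (log2 fold change -2.55, SE 0.65, limma adjusted p = 0.0280), while Timp1 inside it was not called. Syn1 passed the minimum mean of 10 only through its mECwt values, so its direction is partly set by the filter.

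Among the proteases, 4 genes were called lower in mECDglut1 and 0 higher, and the 4 were all ADAMTS genes. Set beside the background, 4 of the 33 described genes were called lower (12.1%), against 5.53% of all tested genes, and 1 was called higher (3.03%), against 5.98% of all tested genes. In either direction 11.5% of all tested genes were called. The genes were chosen with earlier results known, so no test was made of these shares. The median log2 fold change was -0.40 over the 17 described Adamts genes, 0.06 over the 12 Mmp genes and 0.49 over the 4 Timp genes, beside 0.02 over all tested genes. Estimates were above 0 for 17 of the 33 genes, and for 51.8% of all tested genes.

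Adamts1 encodes a versican- and aggrecan-cleaving protease first known as an inflammation-induced gene and as an inhibitor of angiogenesis. Per exonic kilobase it was the most abundant of the Mmp and Adamts genes. It had 9428, 8806, 11417 and 8570 normalised counts in mECDglut1 libraries 1 to 4, against 14352, 19962 and 16581 in mECwt libraries 1 to 3. The groups did not overlap. The means were 9555 ± 1293 (SD, n = 4) in mECDglut1 and 16965 ± 2825 (SD, n = 3) in mECwt, or -0.82 as a log2 difference (SE 0.15, 95% interval -1.14 to -0.51, limma adjusted p = 0.00944). Adamts1 stayed called whichever single library was left out (adjusted p of 0.00584 to 0.0314). The Adamts1 call ended in limma without the mean-variance trend (adjusted p = 0.0690) and with the replicate number as a block (adjusted p = 0.0779).

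Adamts9, a close relative that also cuts versican and is expressed in endothelium, was lower as well. It had 2484, 1819, 2552 and 2258 normalised counts in mECDglut1, against 3644, 3705 and 2764 in mECwt. The 4 values lay below the 3, with the nearest pair at 2552 in mECDglut1 and 2764 in mECwt (log2 fold change -0.56, SE 0.15, 95% interval -0.89 to -0.24, limma adjusted p = 0.0337). The Adamts9 call ended without mECDglut1 library 1, 2 or 4 or mECwt library 1 or 2 (adjusted p of 0.0591 to 0.148). On the opposite strand, the exons of A730049H05Rik and Gm15737 overlap those of Adamts9, and both were lower. Gm15737 averaged 23.6 ± 13.6 in mECDglut1 and 141.2 ± 9.74 in mECwt (log2 fold change -2.68, SE 0.40), and A730049H05Rik 15.6 in mECDglut1 and 51.8 in mECwt (log2 fold change -2.06, SE 0.59). Their levels were far below that of Adamts9 in every library.

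Adamts10, which acts on fibrillin microfibrils and is mutated in a human connective tissue syndrome, had the largest fall of the called proteases. It had 348.0, 542.8, 527.9 and 381.8 normalised counts in mECDglut1, against 1600, 1032 and 762.1 in mECwt. The groups did not overlap, but the mECwt values spread widely. The means were 450.1 ± 99.5 (SD, n = 4) in mECDglut1 and 1131.5 ± 428 (SD, n = 3) in mECwt, or -1.29 as a log2 difference (SE 0.23, 95% interval -1.79 to -0.79, limma adjusted p = 0.0106). Without mECwt library 1 the Adamts10 call ended (adjusted p = 0.0808).

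Adamts18, whose loss affects eye development in mouse and human, was the faintest of the called genes. It had 94.8, 92.0, 101.3 and 131.1 normalised counts in mECDglut1, against 179.6, 162.1 and 183.7 in mECwt. The groups did not overlap (log2 fold change -0.75, SE 0.22, 95% interval -1.23 to -0.26, limma adjusted p = 0.0472). Leaving out any 1 of the 7 libraries ended the Adamts18 call (adjusted p of 0.0576 to 0.160). In limma without the mean-variance trend, Timp4 and all 4 called Adamts genes lost their calls (adjusted p of 0.0690 to 0.117).

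**Figure D2:**
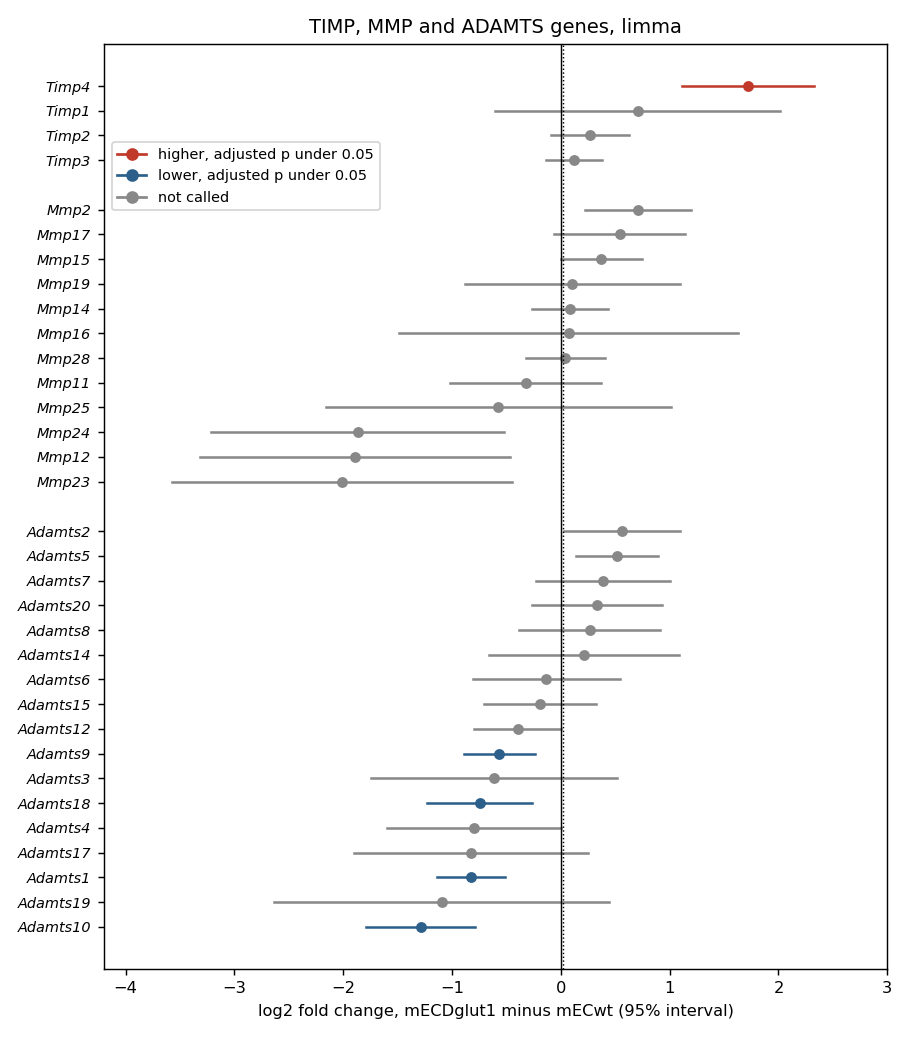
Log2 fold change, mECDglut1 minus mECwt, of the 33 described genes (points, with 95% intervals from limma), grouped as Timp (top), Mmp and Adamts; red marks called higher, blue called lower, grey not called. The dotted line is the median of all tested genes, 0.02; Timp4 lies at 1.72 and the 4 called Adamts genes between -1.29 and -0.56.

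The remaining proteoglycan-cleaving ADAMTS genes were not called. Adamts5, an aggrecanase that also clears versican, had 508.0, 462.1, 593.3 and 488.1 normalised counts in mECDglut1, against 281.5, 395.4 and 407.8 in mECwt. Its groups did not overlap, with the higher values in mECDglut1, but it missed the threshold (log2 fold change 0.52, SE 0.18, adjusted p = 0.0680). Adamts4, the other main aggrecanase, had 292.3, 100.1, 335.7 and 190.2 in mECDglut1, against 385.5, 557.6 and 222.1 in mECwt. The groups of Adamts4 overlapped (log2 fold change -0.80, SE 0.37, adjusted p = 0.155). Adamts8, Adamts15 and Adamts20, of the same functional group, had log2 fold changes of 0.26, -0.19 and 0.33, none called.

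The procollagen N-propeptidases, which trim fibrillar procollagens, were not called. Adamts2 averaged 151.8 ± 30.8 in mECDglut1 and 102.6 ± 24.2 in mECwt (log2 fold change 0.56, SE 0.25, adjusted p = 0.136). Adamts3 and Adamts14 had log2 fold changes of -0.61 and 0.21.

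In the rest of the ADAMTS family, Adamts12, which cuts cartilage oligomeric matrix protein, separated the groups without passing the test. It had 200.3, 178.2, 162.0 and 166.4 normalised counts in mECDglut1, against 226.4, 238.2 and 232.2 in mECwt, 4 values below 3 (log2 fold change -0.40, SE 0.19, adjusted p = 0.157). Its relative Adamts7 had a log2 fold change of 0.39 (adjusted p = 0.360). Adamts6, the nearest relative of Adamts10, overlapped between groups at 170.1 ± 72.6 in mECDglut1 and 177.8 ± 48.4 in mECwt (log2 fold change -0.13, adjusted p = 0.793). Adamts17 and Adamts19 stood at -0.82 and -1.10, with 95% intervals of -1.90 to 0.25 and -2.63 to 0.44.

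By limma, 0 of the 12 described Mmp genes were called, while 5 of them had an unadjusted p under 0.05 (Mmp2, Mmp12, Mmp15, Mmp23 and Mmp24). At an unadjusted p under 0.05, 12 of the 33 genes of all 3 families passed (36.4%), against 32.3% of all tested genes. Mmp2, the secreted gelatinase that cuts type IV collagen, had 598.4, 760.4, 446.7 and 415.2 normalised counts in mECDglut1, against 302.3, 269.1 and 441.0 in mECwt. The groups of Mmp2 overlapped at mECDglut1 library 4 and mECwt library 3 (log2 fold change 0.71, SE 0.23, adjusted p = 0.0576). Without mECwt library 3 Mmp2 was called (log2 fold change 0.92, adjusted p = 0.0333).

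Of the membrane-anchored MMPs, Mmp14, the main activator of pro-MMP2, was close between groups. It had 855.7, 622.3, 612.8 and 570.1 normalised counts in mECDglut1, against 597.6, 669.1 and 595.1 in mECwt (log2 fold change 0.08, SE 0.16, 95% interval -0.27 to 0.43). Mmp15, its relative, had 1462, 1048, 1156 and 1249 in mECDglut1, against 792.2, 1242 and 846.5 in mECwt, with overlap (log2 fold change 0.37, SE 0.17, adjusted p = 0.151). Mmp17, which is held in the membrane by a lipid anchor, had a log2 fold change of 0.54 (adjusted p = 0.195). Mmp16 and Mmp25 had wide intervals of -1.49 to 1.63 and -2.16 to 1.01.

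Mmp28, or epilysin, a secreted MMP, was the most abundant Mmp gene per exonic kilobase. It had 1008.5, 1184, 787.6 and 1207 normalised counts in mECDglut1, against 901.2, 941.3 and 1186 in mECwt (log2 fold change 0.04, SE 0.17, 95% interval -0.32 to 0.41). Its values overlapped fully. Mmp11 and Mmp19 had log2 fold changes of -0.32 and 0.11 at means of 59.0 and 41.8.

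The faint Mmp genes Mmp24, Mmp12 and Mmp23 had the largest negative estimates among the 33 genes. Mmp24, a membrane-anchored MMP known from neurons, had 10.7, 6.1, 9.6 and 2.6 normalised counts in mECDglut1, against 29.8, 31.4 and 19.5 in mECwt. Its groups did not overlap (log2 fold change -1.87, SE 0.63, adjusted p = 0.0651), and it was called with a pseudocount of 5 (adjusted p = 0.0461). Mmp12, the macrophage elastase, had 3.9, 4.2, 6.7 and 24.1 in mECDglut1, against 29.3, 42.5 and 22.0 in mECwt, with 1 mECDglut1 value among those of mECwt (log2 fold change -1.89, SE 0.66, adjusted p = 0.0748). Mmp23, with 1.8, 33.3, 11.3 and 5.5 in mECDglut1 and 40.8, 31.1 and 39.1 in mECwt, likewise overlapped (log2 fold change -2.01, SE 0.73, adjusted p = 0.0808). Without mECDglut1 library 2 Mmp23 was called (adjusted p = 0.0373). Mmp24 and Mmp12 reached the minimum mean of 10 through their mECwt values, since Mmp24 averaged 7.25 and Mmp12 9.75 in mECDglut1. Every mECDglut1 library also had more genes at 0 than any mECwt library. The part of this in the estimates of faint genes was not tested.

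Counting genes whose groups do not overlap, 2 of the 33 were higher in mECDglut1 (6.06%, against 14.7% of all tested genes), namely Timp4 and Adamts5. In the other direction 6 were lower (18.2%, against 14.1%), namely Adamts1, Adamts9, Adamts10, Adamts12, Adamts18 and Mmp24. Mmp24 passed the minimum mean only through its mECwt values, so its place in that count is partly set by the filter. In either direction this was 8 of 33 genes, beside 28.8% of all tested genes.

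Levels differed over orders of magnitude between members. Per exonic kilobase and averaged over the 7 libraries, Timp3 stood at 2661, Adamts1 at 2401, Timp2 at 1373 and Timp4 at 539.2 normalised counts. Mmp28 (266.1), Mmp15 (206.3), Adamts9 (182.5), Mmp2 (137.0) and Mmp14 (108.4) followed, ahead of Adamts10 at 89.9. In mECDglut1, Timp4 per exonic kilobase reached 767 ± 240 (SD, n = 4), against 235.5 ± 106 (SD, n = 3) in mECwt. Adamts19 was the faintest described gene, with a mean normalised count of 13.4, and Mmp13 lay just outside at 7.27.

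**Figure D3:**
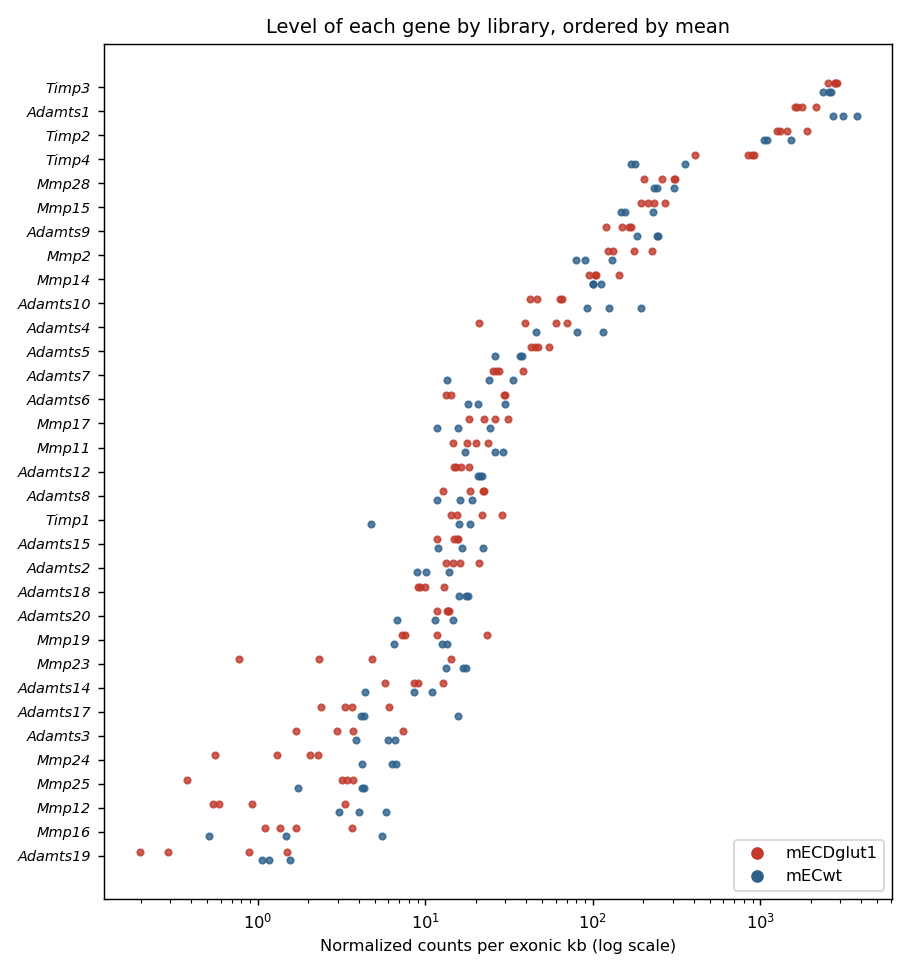
Normalised counts per exonic kilobase (x axis, log scale) of the 33 described genes, ordered by their mean over 7 libraries; each point is 1 library, mECDglut1 red and above, mECwt blue and below. Timp3 and Adamts1 head the order with means of 2661 and 2401, and the mECDglut1 points of Adamts1 lie left of its mECwt points.

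The 10 genes under a mean of 10 were Adamts13, which cuts von Willebrand factor, Adamts16, the collagenase genes Mmp8 and Mmp13, the stromelysin genes Mmp3 and Mmp10, the gelatinase gene Mmp9, and Mmp20, Mmp21 and Mmp27. Their means were 0.116 to 7.27 normalised counts, and no library exceeded 20.5. Mmp8 and Mmp9 are stored by neutrophils. The neutrophil markers S100a8, S100a9, Retnlg, Csf3r, Ly6g and Ngp summed to 26.4 to 322 in mECDglut1 and 49.1 to 57.2 in mECwt. In the annotation used for lengths, 7 of the 20 Mmp genes lie on chromosome 9, where they form a cluster, and 6 of these 7 were under a mean of 10. Mmp12, at 19.0, was the exception.

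Set against each other by library, proteases were lower relative to TIMPs in mECDglut1. The described proteases summed to 3191, 2969, 3379 and 2881 normalised counts per exonic kilobase in mECDglut1 libraries 1 to 4, against 4080, 5195 and 4418 in mECwt libraries 1 to 3. The TIMPs summed to 4764, 5130, 4924 and 5277 in mECDglut1, against 3631, 4048 and 4361 in mECwt. Neither sum overlapped between groups with the values as deposited. Both sums depend on scaling between libraries, and library totals were larger in mECDglut1 (14592369 to 15731074) than in mECwt (11855652 to 13441728). Relative to the library total, the protease sums still did not overlap. The TIMP sums did overlap, since mECDglut1 library 1 then lay below mECwt libraries 1 and 3. The log2 ratio of proteases to TIMPs was -0.58, -0.79, -0.54 and -0.87 in mECDglut1, against 0.17, 0.36 and 0.02 in mECwt. Per exonic kilobase, TIMPs exceeded proteases in all 4 mECDglut1 libraries, and proteases exceeded TIMPs in all 3 mECwt libraries. In mECwt library 3 this was narrow (4418 against 4361). Without division by length, all 39 protease genes summed to 16842 to 19931 in mECDglut1 and 24688 to 30468 in mECwt. The TIMPs then summed to 31032 to 34574 in mECDglut1 and 24552 to 28473 in mECwt. In mECwt those ranges overlap, so the order given above for mECwt is that of levels per exonic kilobase. The difference in the mean log2 ratio per exonic kilobase was -0.88, and it is a ratio within each library that does not depend on scaling between libraries. No p is given, since it is a score over chosen genes.

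Leaving out Adamts1 or Timp4 was tried after the values were seen, and no other gene was left out. Adamts1 made up 55.7% to 63.7% of the summed protease level in mECDglut1 and 66.3% to 72.5% in mECwt. Without Adamts1 the protease sums overlapped, at 1225 to 1413 in mECDglut1 and 1291 to 1430 in mECwt, and the difference in the log2 ratio was -0.39, with the groups meeting at -1.75 in mECDglut1 library 1 and -1.76 in mECwt library 3. Without Timp4 the difference was -0.72. The summed ADAMTS level was 2262 ± 284 (SD, n = 4) in mECDglut1 and 3837 ± 544 (SD, n = 3) in mECwt, while the summed MMP level was 843.3 ± 91.3 in mECDglut1 and 726.9 ± 58.1 in mECwt and overlapped.

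**Figure D4:**
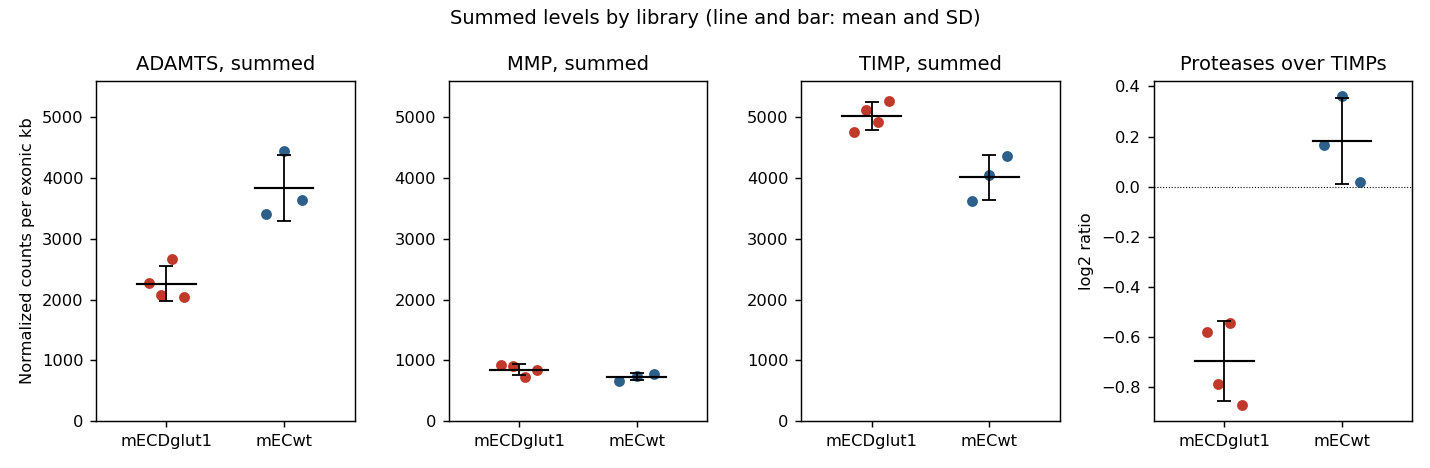
Summed normalised counts per exonic kilobase of described Adamts, Mmp and Timp genes and the log2 ratio of proteases to TIMPs (right), with mECDglut1 red on the left and mECwt blue on the right of each panel; points are libraries, lines means and bars SD. The ratio lies between -0.87 and -0.54 in mECDglut1 and between 0.02 and 0.36 in mECwt.

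Other genes of matrix proteolysis were read as lists. Of 10 tested surface ADAM protease genes, 0 were called by limma (median log2 fold change 0.15, beside 0.02 over all genes). An unadjusted p under 0.05 was reached by 2 of the 10, Adam10 and Adam15, beside 32.3% of all tested genes. Adam15, which is abundant in endothelium, averaged 5847 ± 826 in mECDglut1 and 4300 ± 682 in mECwt (log2 fold change 0.44, SE 0.15, adjusted p = 0.0661). Of 7 ADAMTS-like genes, whose products have no protease domain, 1 was higher and 1 lower. Thsd4, which promotes fibrillin assembly, was higher (log2 fold change 0.53, SE 0.15), and Adamtsl4, a fibrillin-binding protein, was lower (log2 fold change -1.19, SE 0.25).

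Of 13 tested genes of proteases that can activate MMPs or cut matrix themselves, 1 was higher, the lysosomal aspartic protease cathepsin D gene Ctsd, at 5224 ± 444 in mECDglut1 and 3233 ± 572 in mECwt (log2 fold change 0.70, SE 0.14), and 0 were lower. Among the genes of other inhibitors and clearance, 2 were called higher. Cst3, the cysteine protease inhibitor cystatin C, averaged 8431 ± 1036 in mECDglut1 and 4861 ± 766 in mECwt (log2 fold change 0.80, SE 0.14, called by limma). Serpine2, a serine protease inhibitor, was higher (log2 fold change 0.57, SE 0.16).

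Of 13 tested substrate genes, 3 were higher and 0 lower, with a median log2 fold change of 0.58. The 3 were the fibrillar collagen genes Col3a1 (1.03, SE 0.20), Col1a2 (0.68, SE 0.14) and Col1a1 (0.76, SE 0.21). Vcan, the versican gene, averaged 254.7 ± 100 in mECDglut1 and 316.0 ± 116 in mECwt (log2 fold change -0.31, adjusted p = 0.494), and Vwf had a log2 fold change of 0.16 (adjusted p = 0.587).

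Markers of some other cell types were higher in mECDglut1, while those of others did not move together. The endothelial markers were on the same side, with all 6 estimates above 0 (median log2 fold change 0.34). Of these, 1 was called higher, Emcn (log2 fold change 0.51, SE 0.16, limma adjusted p = 0.0484). The 8 fibroadipogenic progenitor markers belong to a stromal cell type that expresses Mmp2, Timp2 and fibrillar collagens. They summed to 12636 to 15370 in mECDglut1 and 6447 to 10426 in mECwt. Most of that sum came from Cd34, Col1a1 and Gsn, with mECDglut1 means of 5289, 4141 and 3655. Gsn and Col1a1 were called higher, and the other 6 were not called. Estimates were above 0 for 6 of the 8, and below 0 for Pdgfra and Pi16 (log2 fold changes of -0.32 and -0.27). The 8 mural cell markers summed to 58529 to 66483 in mECDglut1 and 36867 to 46531 in mECwt, with the smooth muscle genes Acta2 and Myh11 called higher. The other 6 were not called, and the pericyte genes Rgs5, Kcnj8, Abcc9 and Pdgfrb had log2 fold changes of -0.02, -0.03, -0.15 and 0.06 (median of the list 0.16). The 4 Schwann cell markers summed to 19869 to 27220 in mECDglut1 and 10943 to 14591 in mECwt, with 3 of 4 called higher. The 7 macrophage markers, of interest beside Mmp12, summed to 223.1 to 369.0 in mECDglut1 and 180.4 to 245.3 in mECwt, and did not move together. Lyz2 was called higher, C1qb had a log2 fold change of 1.92 (adjusted p = 0.121), and Cd68, Csf1r and Mrc1 had -1.19, -1.18 and -0.16, none called (median of the 5 tested -0.16). The defining marker Adgre1 stood at 3.2, 0, 3.6 and 23.2 in mECDglut1 and 3.5, 0 and 0 in mECwt, so its higher mean in mECDglut1 rests on library 4. Of the tested markers in the other lists, 5 of 5 erythroid, 2 of 4 satellite cell, 2 of 4 tenocyte and 1 of 2 adipocyte markers were called higher. Of the 2 tested T and B cell markers 1 was called lower, and 0 of 5 muscle fibre markers were called. Of all tested genes, 5.98% were called higher and 5.53% lower. The adipocyte call was Cfd, which passed the minimum mean of 10 only through its mECDglut1 values (mean 40.2, against 1.87 in mECwt). No marker of these lists was at 0 in all libraries. The part of these cells in the levels of Timp4, Mmp2, Adamts5 and the collagens was not tested.

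**Figure D5:**
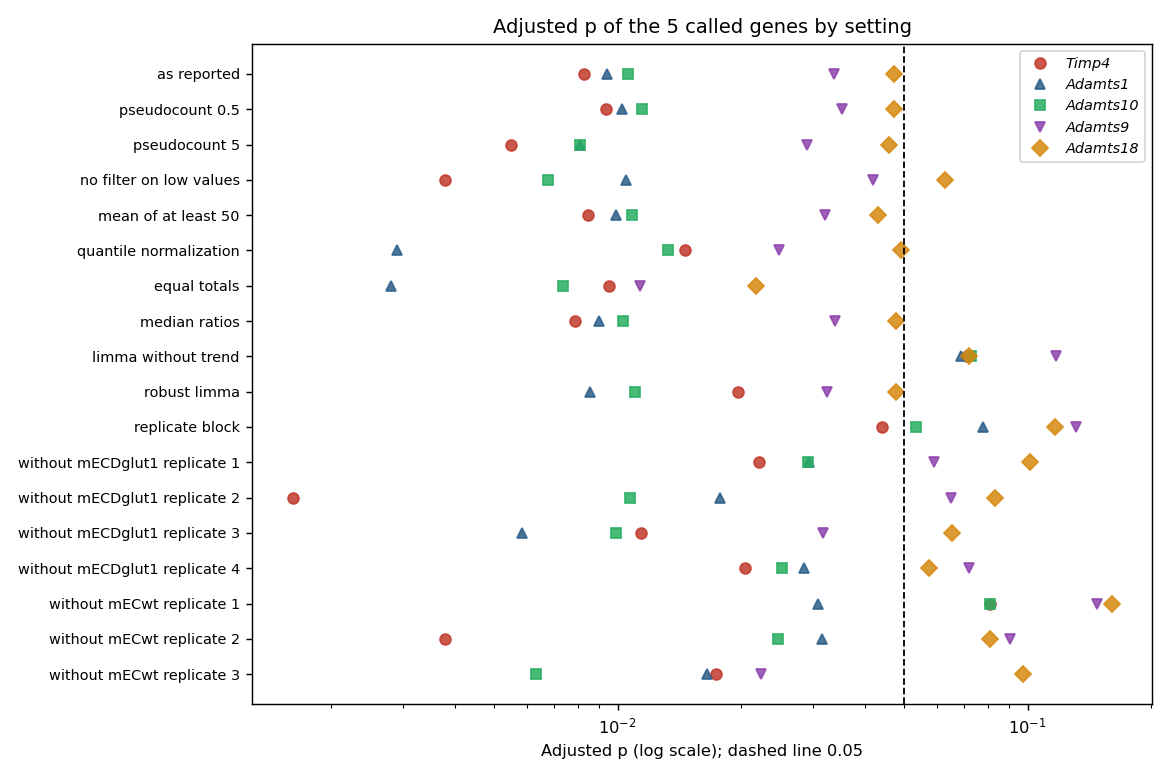
Adjusted p (x axis, log scale) of the 5 called genes under the values as reported and 17 alternative settings (y axis); the dashed line marks 0.05. Timp4 and Adamts1 lie left of the line in 15 of 17 alternatives each, Adamts10 in 14, Adamts9 in 10 and Adamts18 in 7.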

How the data were processed

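Bulk RNA sequencing was done on 7 libraries, with groups and replicate numbers taken from the sample titles. Per the labels, RNA was extracted with an RNeasy Plus kit and 10 ng entered Takara Clontech PicoMammalian v2 libraries. Named in the submitters' processing notes, with no role or version, are featureCounts, kallisto, DESeq2, DESeq and the build GRCm39. The deposited values are the authors' normalised counts, a scaled signal per gene with 1 table per library. They are not whole: 24.4% to 48.6% of low values lay within 0.02 steps of a multiple of the smallest repeated value, so whole reads were not recovered, count-based tests were not run, and no counting interval is given.

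A pseudocount of 1 was added before taking log2, so fold changes of faint genes are understated, for 16931 genes with a mean of at least 10. Limma 3.58.1 in R 4.3.3 (mean-variance trend) was fitted to all of them, with Benjamini-Hochberg adjustment, a threshold of 0.05 and 95% intervals. The code was tested on simulated data. Exonic lengths came from GENCODE M21, an older build (GRCm38), for all 43 genes. Chromosomes and overlaps between genes were taken from the same annotation. Promoter sequences and their coordinates are those of RefSeq on GRCm38.p6, not the GRCm39 build of the submitters' notes.

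The genes, lists, tests and naming rule were chosen with earlier results of these data known. The rule named the Timp genes, called genes, the 3 Mmp and 5 Adamts genes with the highest means, genes without overlap between groups, up to 3 called genes per list (else the most abundant), and Slc2a1. Alternatives were other pseudocounts (0.5 and 5), filters, scalings and limma options, a replicate block, and leaving out each library. After the data were seen, sums without Adamts1 or Timp4 were added. A result of the list of other inhibitors and clearance is not reported here.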

Additional observations from a re-analysis of the deposited data

Results flagged for a closer look

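Among 34 values examined, 33 genes and the ratio of proteases to TIMPs, 5 genes had 1 of the 4 mECDglut1 libraries far from the other 3, by the ratio of its gap to the whole range. Chance gives about 1 in 20. Library 2 was the low one for Timp4 (gap ratio 0.852, 2413 normalised counts against 4992 to 5440 in the others), Mmp25 (0.840, 2.0 against 16.8 to 19.6) and Adamts20 (0.835, 106.4 against 122.1 to 125.2). Library 3 was high for Adamts7 (0.832, 239.6 against 158.9 to 172.5), and library 4 was high for Mmp12 (0.861, 24.1 against 3.9 to 6.7). Without mECDglut1 library 2, Timp4 had a log2 fold change of 2.00 (limma adjusted p = 0.00162). Because library 2 was singled out as the low value of the higher group, its removal had to raise this estimate and adds no support to the call.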

How the results depend on the processing

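Under 17 alternatives, Timp4 was called in 15, Adamts1 in 15, Adamts10 in 14, Adamts9 in 10 and Adamts18 in 7, and none of these 5 changed sign. Without limma's trend, 0 of the 33 genes were called higher and 0 lower, and 17 of all genes were called, against 1949 as reported. Leaving out 1 library at a time left 0 to 2 called higher and 1 to 3 called lower, with 38 (without mECwt library 1) to 1992 of all genes called. The median log2 fold change of Mmp genes was -0.058 with no filter, 0.23 at a mean of at least 50, -0.16 at equal totals and -0.20 to 0.14 without single libraries. That of Adamts genes was -0.56 with no filter, -0.19 at a mean of at least 50, -0.27 under quantile normalization and -0.62 at equal totals. That of Timp genes was 0.27 at a mean of at least 50, 0.82 under quantile normalization, 0.27 at equal totals and 0.18 to 0.68 without single libraries, and that of all proteases 0.043, -0.054 and -0.42 in the same order. The difference in log2 ratio was -0.39 without Adamts1 and -0.96 to -0.79 without single libraries. Signs turned at equal totals for Adamts14 (-0.008), Mmp14 (-0.14), Mmp16 (-0.14), Mmp19 (-0.11), Mmp28 (-0.18) and Timp3 (-0.10), under quantile normalization for Mmp14 (-0.054), Mmp25 (0.26), Mmp28 (-0.090) and Timp3 (-0.19), and with a pseudocount of 5 for Mmp16 (-0.015). Without single libraries the ranges that crossed 0 were Adamts14 -0.16 to 0.49, Adamts15 -0.42 to 0.019, Adamts6 -0.32 to 0.074, Mmp14 -0.043 to 0.15, Mmp16 -0.68 to 0.91, Mmp19 -0.24 to 0.31, Mmp25 -0.98 to 0.095 and Mmp28 -0.034 to 0.17. The cause of these moves was not tested. With the replicate number as a block, 119 of all genes were called, 0 of the 33 were called lower, Timp4 stayed called (limma adjusted p = 0.0441), the Mmp median was -0.14, and signs turned for Adamts6 (0.066), Mmp19 (-0.24) and Mmp28 (-0.032). Same-numbered libraries did not deviate together (correlations -0.0806, -0.048 and -0.125). These values were centred within groups of 4 and 3 libraries, so they cannot decide whether the numbers pair libraries. Under quantile normalization 1102 of all genes were called.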

Other observations

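Adamts1 and Adamts5, proteases that both cut versican and aggrecan and whose genes lie on chromosome 16, had estimates of opposite sign, but only Adamts1 was called (Adamts5 log2 fold change 0.52, limma adjusted p = 0.0680, and called in 0 of 17 alternatives). Their ratio was chosen after the values were seen. The ratio of Adamts1 to Adamts5 normalised counts was 18.6, 19.1, 19.2 and 17.6 in mECDglut1 libraries 1 to 4, against 51.0, 50.5 and 40.7 in mECwt libraries 1 to 3. As a ratio within a library it does not depend on scaling between libraries.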
